A study of Mus musculus with 15 samples.

Results

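Plasma miRNAs were compared among the 9 libraries of the cecal ligation and puncture (CLP) group, which made up 9 of the 15 libraries of the series and were chosen by their label alone. All came from platelet-free plasma of male wild type mice of the C57BL/6J strain, sampled 24 h after surgery. In CLP the cecum is tied off and pierced, so that gut bacteria leak into the abdomen, and the operation serves as a model of polymicrobial sepsis. Every library shares the strain, sex, genotype, operation and time point, and the labels give 1 time point only. Whether the numbered libraries come from different mice is not stated, and p-values therefore reflect the variation among these libraries, which may be technical. No control library entered any value below. The question was which extracellular miRNAs differed most between these libraries, and which of them were high and low together.

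Most miRNAs in plasma ride in vesicles, in lipoproteins or bound to Argonaute proteins, and many are made in only a few cell types. The hepatocyte miRNA miR-122-5p, the heart and skeletal muscle miRNA miR-1a-3p, the acinar pancreas miRNA miR-217-5p, the red cell miRNA miR-451a, the smooth muscle miRNA miR-143-3p and the neutrophil and monocyte miRNA miR-223-3p therefore served as the tissue markers. Plasma levels of such miRNAs are known to respond to tissue injury, to blood cell lysis during sampling and to secretion. A level in CPM (counts scaled to a common library size) is a share of the library, so more of one miRNA lowers the share of the others, and more releasing cells cannot be told apart from more release per cell.

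The mature sequences of miRNAs that carry the findings on pancreas, red cell, myeloid, liver, muscle and X-linked miRNAs are given 5′ to 3′ from RefSeq (GRCm38.p6), with the seed (bases 2 to 8, which pairs with target mRNAs) in capitals. Those available cover the leading partner of miR-122-5p, a pair of partners of miR-1a-3p and the 2 X-linked miRNAs of very large spread.
miR-217-5p: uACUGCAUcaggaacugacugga
miR-451a: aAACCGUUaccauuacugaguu
miR-144-3p: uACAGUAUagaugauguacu
miR-223-3p: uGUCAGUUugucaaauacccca
miR-802-5p: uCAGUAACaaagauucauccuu
miR-499-5p: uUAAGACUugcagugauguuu
miR-206-3p: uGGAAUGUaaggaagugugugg
miR-741-3p: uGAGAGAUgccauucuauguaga
miR-871-3p: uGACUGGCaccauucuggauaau

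A further 6 sequences are shown because the levels of these miRNAs followed the base composition of the libraries, the first 3 with a positive and the last 3 with a negative correlation. Their GC content was 54.5% for miR-501-3p, 62.5% for miR-351-5p, 65.2% for miR-298-5p, 42.1% for miR-101b-3p, 45.5% for miR-148a-5p and 36.4% for let-7g-5p, against a median of 47.6% over the tested miRNAs with a sequence.
miR-501-3p: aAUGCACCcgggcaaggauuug
miR-351-5p: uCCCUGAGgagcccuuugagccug
miR-298-5p: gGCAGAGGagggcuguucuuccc
miR-101b-3p: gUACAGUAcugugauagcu
miR-148a-5p: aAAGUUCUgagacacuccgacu
let-7g-5p: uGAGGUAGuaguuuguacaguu

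Library totals ran from 6181051 counts in CLP 2 to 13576481 in CLP 3. With a minimum mean of 10 CPM over the 9 libraries, 239 of 1205 entries were tested, and they held at least 99.90% of the counts of every library. Rank correlations between libraries across the tested miRNAs ran from 0.889 to 0.979, with a median of 0.951. The most abundant miRNAs by mean level were miR-10a-5p, encoded among the HoxB genes, at 177956 CPM, miR-486a/b-5p at 147778, miR-10b-5p at 119985, miR-22-3p at 106890 and miR-143-3p at 37522. At the head of the individual libraries stood miR-10a-5p in CLP 1, 4, 7, 8 and 9, miR-22-3p in CLP 2 and 3, and miR-486a/b-5p in CLP 5 and 6. Libraries CLP 1 and CLP 5 stood apart from the rest. CLP 1 held the highest value for 24.7% and the lowest for 22.2% of the tested miRNAs, and CLP 5 for 20.1% and 25.9%, whereas CLP 6 held them for 4.18% and 3.77%. Values without one or both of them are given beside the results they touch most.

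The standard deviation (SD) of log2 CPM over the 9 libraries had a median of 0.488 among the 239 tested miRNAs, with 0.368 as the 25th and 0.658 as the 75th percentile. An SD of at least 1 was reached by 19 miRNAs, or 7.95%. Counting error was small beside this spread, with a median of 0.0535 on the same scale, and it exceeded 50% of the SD for miR-15a-3p alone. The tissue markers reached from the top of the range to near its median. The SD was 2.12 for miR-217-5p, 1.77 for miR-122-5p and 1.04 for miR-1a-3p, all among the 19, and 0.68 for miR-451a, 0.46 for miR-143-3p and 0.46 for miR-223-3p. The other miRNAs with a leading spread were miR-741-3p (SD 2.84), miR-871-3p (2.07), miR-196a-1-3p (1.89), miR-423-5p (1.38), miR-200b-5p and miR-615-3p (1.29 each), miR-184-3p and miR-802-5p (1.28 each), miR-214-3p (1.27) and miR-3535 (1.18). Some of these rest on 1 library: without CLP 1 the SD was 0.73 for miR-615-3p, 0.78 for miR-802-5p and 0.88 for miR-200b-5p, and without CLP 5 it was 0.76 for miR-1a-3p. It stayed at 2.59 or more for miR-741-3p, 2.02 or more for miR-217-5p and 1.27 or more for miR-122-5p on leaving out any 1 library. Of the 19, CLP 5 held the highest value of 6 and the lowest of 6, and CLP 1 the highest of 3 and the lowest of 7.

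**Figure D1:**
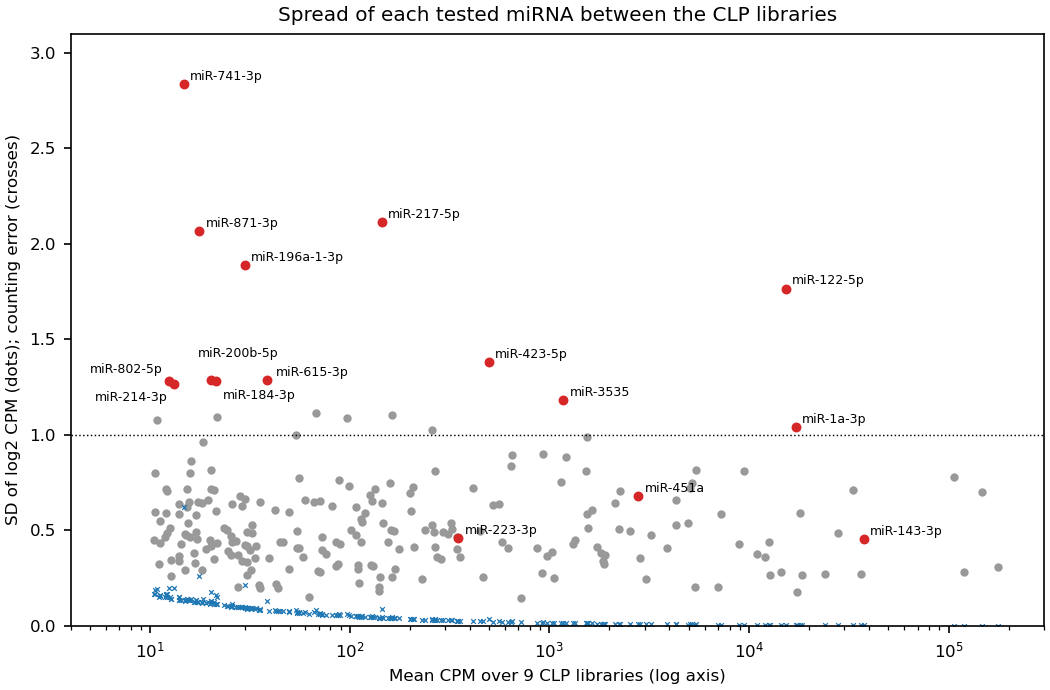
Each dot is 1 of the 239 tested miRNAs, with its mean CPM over the 9 CLP libraries on the x axis (log axis) and the SD of its log2 CPM on the y axis; crosses give the counting error of the same miRNA. Red dots are the 12 miRNAs with the largest SD and the 6 tissue markers, and the dotted line marks an SD of 1: miR-217-5p and miR-122-5p lie far above the bulk, miR-143-3p and miR-223-3p within it.

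The steadiest miRNAs were miR-30c-5p, with an SD of 0.148, miR-409-3p (0.151), miR-27b-3p (0.180), miR-24-2-5p (0.185) and miR-181c-5p (0.198). Abundance did not order the spread: over 4 classes of mean CPM of like size, from low to high, the median SD was 0.543, 0.440, 0.494 and 0.466.

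The liver list contained some of the widest ranges. miR-122-5p, which makes up most of the miRNA of hepatocytes, ran from 1836 CPM in CLP 6 over a median of 6745 to 79531 in CLP 1, and the next highest level was 17779 in CLP 5. CLP 1 thus stood more than 4 times above every other library, and CLP 4, with 3564 CPM, CLP 7, CLP 2 and CLP 6 formed the lower end. Its hairpin lies on chromosome 18 (65248861 to 65248926, plus strand, mm10), in an exon of the long noncoding RNA gene AC157910.3. The other arm of the hairpin, miR-122-3p, too scarce to be tested, was read 251 times in CLP 1 and 2 times in CLP 2, and its r with miR-122-5p was 0.84.

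Of the 8 liver miRNAs named, 6 were tested, and their summed level ran from 18505 CPM in CLP 6 over a median of 43365 to 156661 in CLP 1, an 8.47-fold range that was 3.36-fold without CLP 1. miR-802-5p, enriched in hepatocytes, ran from 2.79 CPM in CLP 2 over 7.37 to 56.1 in CLP 1. Its mean of 12.4 CPM reached the minimum of 10 CPM for testing only through CLP 1, where miR-122-5p was highest too. Its correlation with miR-122-5p was r = 0.84 (exact permutation p = 0.00634, adjusted p = 0.320; rho = 0.78, exact p = 0.0172), and 0.59 without the 2 libraries farthest from the median of miR-122-5p. miR-194-5p, made in liver, kidney and gut, was highest in CLP 1 too, at 371 CPM against a median of 112 and a lowest level of 68.9 in CLP 3. For miR-194-5p the correlation with miR-122-5p was r = 0.77 (exact permutation p = 0.0183, adjusted p = 0.383; rho = 0.53, exact p = 0.148), but it was 0.42 without CLP 1 and 0.23 without the 2 farthest libraries, so it rests on them. The same held for miR-192-5p, from 12089 CPM in CLP 6 to 67669 in CLP 1, with r = 0.71 (exact permutation p = 0.0313, adjusted p = 0.431; rho = 0.65, exact p = 0.0666) and 0.18 without the 2 farthest. For miR-148a-3p, abundant in liver, r was 0.59 (exact permutation p = 0.0922, adjusted p = 0.608; rho = 0.38, exact p = 0.312), and 0.13 without CLP 1. miR-215-5p, made in gut and kidney, shares its seed with miR-192-5p and did not follow miR-122-5p: it was lowest in CLP 6 at 512 CPM and highest in CLP 7 at 2107, with r = -0.20 (exact permutation p = 0.606, adjusted p = 0.902; rho = 0.10, exact p = 0.810).

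Over the 5 tested list members other than the marker, the median r with miR-122-5p was 0.71, beside -0.08 over all 238 tested miRNAs. These 5 include miR-802-5p, which met the minimum level only through CLP 1. By the exact two-sided permutation test of Pearson's r, adjusted by Benjamini-Hochberg over the 1413 distinct pairs of the 6 markers with tested miRNAs, 0 of 238 miRNAs (0%) passed for miR-122-5p. At an unadjusted exact p under 0.05 there were 17, of which 9 were positive, or 7.14%, and 5 by Spearman's rho, which also gave 0 after adjustment. The lowest adjusted p was 0.320. The GC slope described below had r = -0.61 with miR-122-5p (rho = -0.07). That r was -0.14 without CLP 1 and 0.47 without the 2 libraries farthest from the median slope, so it rests on them. The log2 total had r = -0.27 with miR-122-5p. The part of the GC slope and the total in these values was not tested.

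**Figure D2:**
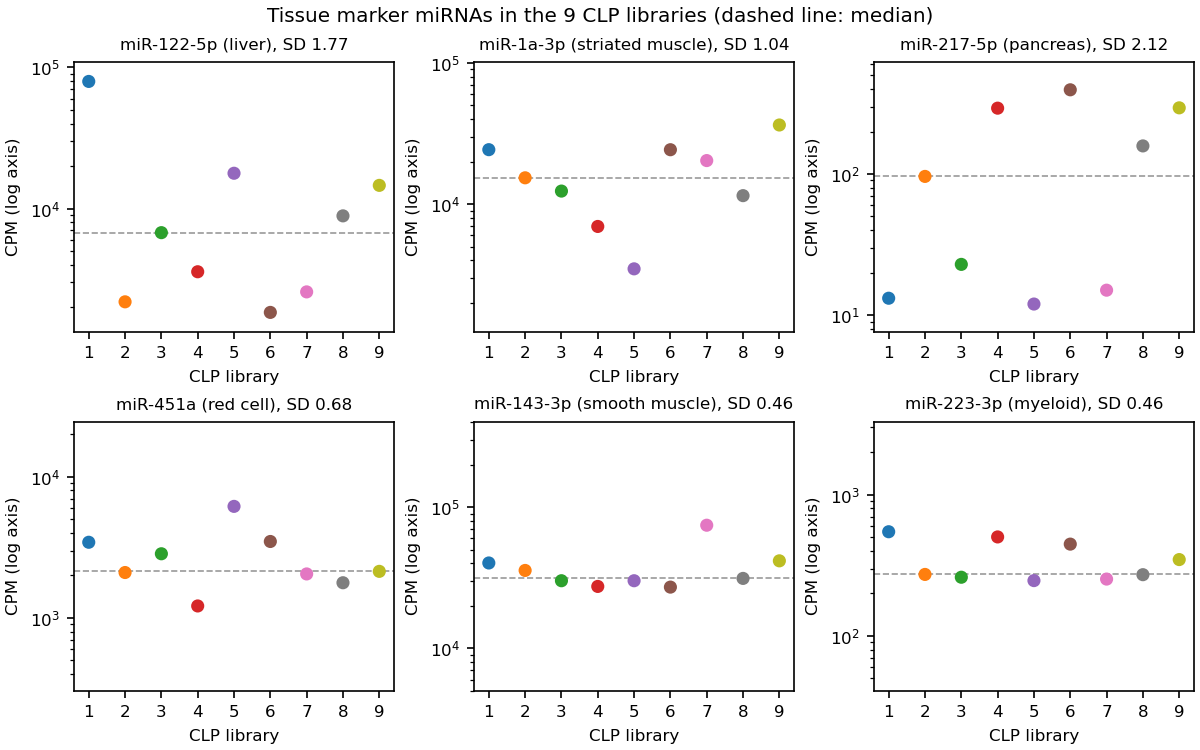
Level of each tissue marker in CPM (log axis, the same span of fold in every panel) in CLP libraries 1 to 9, with the median as a dashed line and the SD of log2 CPM in the panel title. CLP 1 stands high for miR-122-5p, CLP 1, 3, 5 and 7 stand low for miR-217-5p, CLP 7 stands alone for miR-143-3p, and miR-223-3p is high in CLP 1, 4 and 6.

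The striated muscle miRNA miR-1a-3p ran from 3476 CPM in CLP 5 over a median of 15352 to 36339 in CLP 9. Low levels were found in CLP 5 and CLP 4 (6941 CPM), and high ones in CLP 9, CLP 1 (24297 CPM) and CLP 6 (24278 CPM). One of its hairpins, Mir1a-1, is annotated on the plus strand of chromosome 2 (mm10, 180389048 to 180389124). Mir1a-2 is on the minus strand of chromosome 18 (10785481 to 10785552), within introns of the Mir133a-1 host gene and, on the opposite strand, of Mib1. Of the 11 striated muscle miRNAs named, 10 had an entry and 6 were tested, and their summed level ran from 4681 CPM in CLP 5 over 19317 to 39432 in CLP 9, an 8.42-fold range that was 4.80-fold without CLP 5.

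The partner that tracked miR-1a-3p most closely within its list was miR-499-5p, encoded in an intron of the slow myosin gene Myh7b (chromosome 2, 155622880 to 155622958). It ran from 8.04 CPM in CLP 4 over 17.9 to 21.7 in CLP 6, and CLP 4, 5 and 8 lay below the other 6 libraries. Its r with miR-1a-3p was 0.83 (exact permutation p = 0.00403, adjusted p = 0.259; rho = 0.77, exact p = 0.0214), and 0.83 without the 2 libraries farthest from the median of miR-1a-3p. miR-133a-3p, transcribed together with miR-1a-3p, ran from 278 CPM in CLP 5 to 2197 in CLP 3, with r = 0.71 (exact permutation p = 0.0340, adjusted p = 0.434; rho = 0.42, exact p = 0.270), and 0.29 without CLP 5. The skeletal muscle miRNA miR-206-3p (chromosome 1, 20679010 to 20679082, in an exon of the long noncoding RNA gene Gm28653) ran from 457 CPM in CLP 4 to 3370 in CLP 3, with r = 0.44 (exact permutation p = 0.228, adjusted p = 0.755; rho = 0.42, exact p = 0.270). The cardiac miRNA miR-208a-3p, from an intron of Myh6 (chromosome 14, 54949060 to 54949142), ran from 5.60 CPM in CLP 4 to 54.2 in CLP 2, with r = 0.52 (exact permutation p = 0.150, adjusted p = 0.681; rho = 0.48, exact p = 0.194). For miR-133b-3p, the cluster partner of miR-206-3p, r was 0.55 (exact permutation p = 0.126, adjusted p = 0.664; rho = 0.25, exact p = 0.521).

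The muscle miRNAs did not move as 1 block. miR-133a-3p and miR-133b-3p were high and low together (r = 0.92, and 0.79 without CLP 1 and CLP 5), with the lowest levels in CLP 5 and the highest in CLP 3, while CLP 9, highest for miR-1a-3p, held 101 CPM of miR-133b-3p against a median of 132. The median r of the 5 tested list members with miR-1a-3p was 0.55, beside 0.08 over all 238. Of the 238, 0 passed after adjustment (0%), 44 had an unadjusted exact p under 0.05 (18.5%, 22 positive and 22 negative), and 47 by Spearman's rho, with a lowest adjusted p of 0.138. Outside the list the closest match was miR-125b-2-3p, with r = 0.93 (exact permutation p = 0.000383, adjusted p = 0.138; rho = 0.82, exact p = 0.0108; 0.76 without the 2 farthest libraries), a name chosen after its value was seen. The red cell list member miR-92a-3p had the lowest r, at -0.84 (exact permutation p = 0.00361, adjusted p = 0.259; rho = -0.82, exact p = 0.0108; -0.70 without the 2 farthest). CLP 5, lowest for miR-1a-3p, was highest for the summed red cell list.

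The pancreas miRNA miR-217-5p had the second largest SD of all tested miRNAs. Its hairpin lies on chromosome 11 (28763728 to 28763835, plus strand, mm10), in an intron of the long noncoding RNA gene Gm12082. In CLP 5, 1, 7 and 3 it held 11.98, 13.2, 15.0 and 22.9 CPM, in CLP 2 96.1, and in CLP 8, 4, 9 and 6 158, 293, 294 and 395. The libraries thus spread over a low set of 4, a high set of 4 and 1 between them.

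The acinar miRNAs miR-216a-5p and miR-216b-5p, encoded close to miR-217, were too scarce to be tested. miR-216a-5p was read 3 times in CLP 1, 1 time in CLP 3, 3 times in CLP 5 and 7 times in CLP 7, and between 24 and 87 times in CLP 2, 4, 6, 8 and 9. CLP 1, 3, 5 and 7 were thus the lowest for both miRNAs, while CLP 2, between the sets for miR-217-5p, was read more often than those 4. The r between the pair was 0.92 (rho = 0.78), between 0.90 and 0.95 on leaving out any 1 library. miR-216b-5p was not read in CLP 1, 3, 5 and 7, and its r with miR-217-5p was 0.82 (rho = 0.82). These pairs were looked up after their values were seen and have no test. By contrast the islet and enteroendocrine miRNA miR-375-3p ran from 261 CPM in CLP 1 over 803 to 1762 in CLP 4, and its r with miR-217-5p was 0.23 (exact permutation p = 0.551, adjusted p = 0.898; rho = 0.02, exact p = 0.982). Of the 6 pancreas entries 2 were tested, and the summed level of the list ran over a 7.49-fold range, or 3.13-fold without CLP 1, the lowest at 275 CPM. Most of this sum was miR-375-3p, so its range does not describe the acinar miRNAs. For miR-217-5p 0 of 238 miRNAs passed (0%), 4 had an unadjusted exact p under 0.05 (1.68%), and 3 by Spearman's rho. The highest r was that of miR-500-3p, at 0.72 (exact permutation p = 0.0152, adjusted p = 0.365; rho = 0.83, exact p = 0.00827; 0.55 without the 2 farthest libraries), and the lowest that of let-7b-5p, at -0.72 (exact permutation p = 0.0352, adjusted p = 0.437; rho = -0.45, exact p = 0.230; -0.92 without the 2 farthest).

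The red cell list had the highest median sum of the lists, and ran from 75625 CPM in CLP 4 over 127263 to 357277 in CLP 5. This 4.72-fold range was 2.96-fold without CLP 5. Most of the sum was miR-486a/b-5p, at 68605 CPM in CLP 4 and 333714 in CLP 5. miR-451a, which is cut by Argonaute 2 without Dicer, ran from 1214 CPM in CLP 4 over a median of 2135 to 6164 in CLP 5. Its hairpin (chromosome 11, 78073170 to 78073241, plus strand, mm10) lies beside that of miR-144 (78073005 to 78073070). miR-144-3p, from the same transcript, ran from 2129 CPM in CLP 8 over 3965 to 11856 in CLP 5. Both miRNAs were highest in CLP 5, followed by CLP 1 and CLP 6, and lowest in CLP 4 and CLP 8. Their correlation was r = 0.90 (exact permutation p = 0.000678, adjusted p = 0.160; rho = 0.92, exact p = 0.00131), 0.83 without the 2 libraries farthest from the median of miR-451a and 0.85 without CLP 5.

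miR-16-5p, abundant in red cells, ran from 1158 CPM in CLP 8 to 2591 in CLP 5, with r = 0.88 to miR-451a (exact permutation p = 0.00120, adjusted p = 0.205; rho = 0.90, exact p = 0.00203; 0.84 without the 2 farthest), and its r with miR-144-3p was 0.98. For miR-486a/b-5p, from the gene Ank1, the range was 68605 CPM in CLP 4 to 333714 in CLP 5, with r = 0.87 (exact permutation p = 0.00283, adjusted p = 0.250; rho = 0.80, exact p = 0.0138; 0.54 without the 2 farthest). miR-486a/b-3p ran from 23.2 CPM in CLP 1 to 248 in CLP 5, with r = 0.71 (exact permutation p = 0.0319, adjusted p = 0.434; rho = 0.48, exact p = 0.194) and 0.15 without the 2 farthest, so this relation rests on them. miR-92a-3p, from the miR-17 to miR-92a cluster, had r = 0.18 (exact permutation p = 0.642, adjusted p = 0.925; rho = 0.07, exact p = 0.880). miR-144-5p, the other arm of the miR-144 hairpin, ran from 13.6 CPM in CLP 2 to 52.6 in CLP 9, with r = 0.04 (exact permutation p = 0.926, adjusted p = 0.991; rho = 0.13, exact p = 0.744), and its r with miR-144-3p was 0.32.

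The median r of the 6 tested list members with miR-451a was 0.79, beside -0.06 over all 238. None of the 238 passed after adjustment (0 miRNAs, 0%), 17 had an unadjusted exact p under 0.05 (14 positive and 3 negative), and 14 by Spearman's rho, with a lowest adjusted p of 0.138. The highest r belonged to miR-186-5p, encoded in an intron of Zranb2 (chromosome 3, 157544279 to 157544349), which ran from 1440 CPM in CLP 8 to 4400 in CLP 5, with r = 0.94 (exact permutation p = 0.000182, adjusted p = 0.138; rho = 0.93, exact p = 0.00075; 0.89 without the 2 farthest). Next was miR-30e-5p, at 0.91 (exact permutation p = 0.00183, adjusted p = 0.205; rho = 0.73, exact p = 0.0311; 0.62 without the 2 farthest). Both were named after their values were seen.

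**Figure D3:**
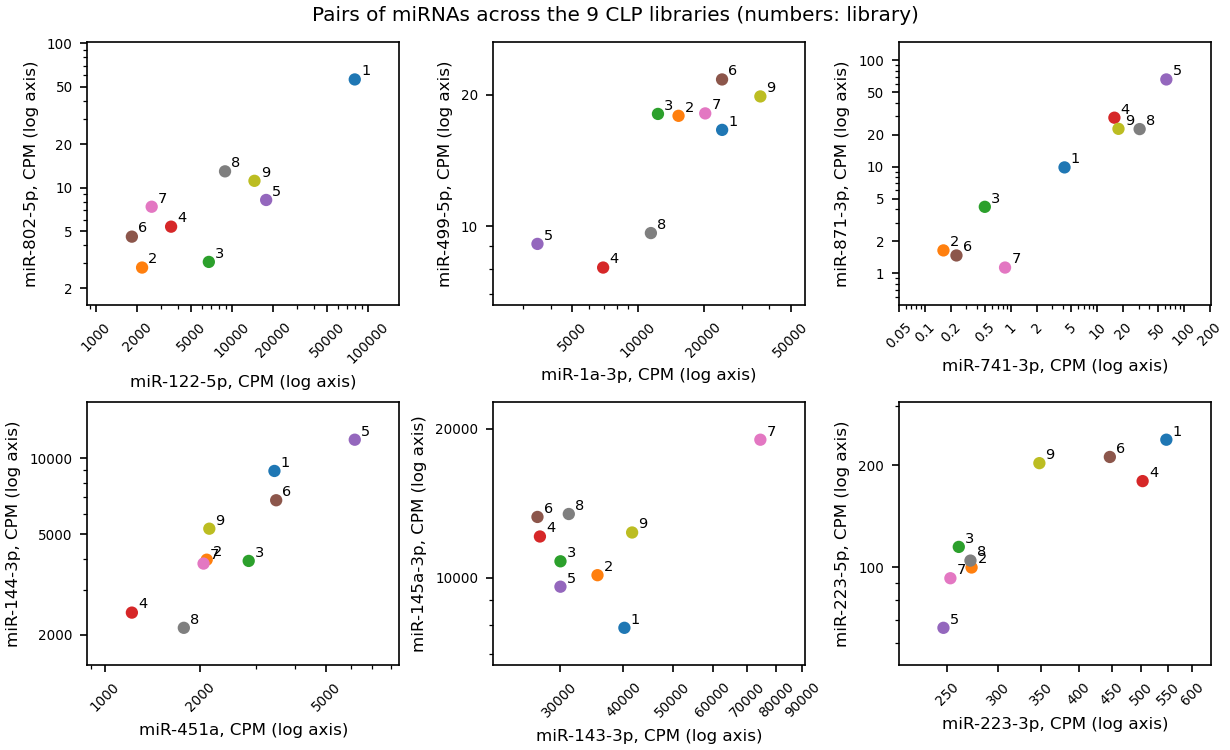
Levels of 6 pairs of miRNAs in CPM (log axes), 1 point for each CLP library with its number. CLP 1 sits apart in the miR-122-5p and miR-802-5p panel, miR-451a with miR-144-3p and miR-223-3p with miR-223-5p spread along a line (r = 0.90 and 0.89), and miR-143-3p with miR-145a-3p is joined by CLP 7 alone (r = 0.48, and -0.45 without CLP 7).

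The smooth muscle miRNA miR-143-3p was even apart from 1 library. It ran from 27106 CPM in CLP 6 over a median of 31240 to 74402 in CLP 7, with 41617 as the next highest level, and its SD was 0.46 with CLP 7 and 0.24 without it. Its hairpin lies on chromosome 18 (61649196 to 61649258, minus strand, mm10). All 4 smooth muscle miRNAs were tested, with a summed level from 41012 CPM in CLP 5 over 48749 to 99457 in CLP 7, a 2.43-fold range that was 1.41-fold without CLP 7. miR-145a-3p, from the neighbouring hairpin that is transcribed with miR-143, was highest in CLP 7 too, at 19009 CPM against a median of 12107. Its r with miR-143-3p was 0.48 (exact permutation p = 0.193, adjusted p = 0.718; rho = 0.13, exact p = 0.744) and -0.45 without CLP 7. miR-143-5p was highest in CLP 7 at 87.3 CPM, with r = 0.58 (exact permutation p = 0.125, adjusted p = 0.664; rho = 0.13, exact p = 0.744) and -0.02 without CLP 7. miR-145a-5p was lowest in CLP 5, at 1320 CPM against a median of 4170, and highest in CLP 2 at 6602, with r = 0.37 (exact permutation p = 0.220, adjusted p = 0.745; rho = 0.20, exact p = 0.613). CLP 7 was thus the highest library for 3 of the 4 members. Between other members miR-145a-5p and miR-143-5p had r = 0.78, and 0.50 without CLP 1 and CLP 5. Against miR-143-3p 0 of 238 miRNAs passed (0%), 2 had an unadjusted exact p under 0.05 (0.840%), namely the entry shared by let-7a-1-3p and let-7c-2-3p (r = 0.77) and miR-27b-3p (0.72), and 4 by Spearman's rho, with a lowest adjusted p of 0.349.

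miR-223-3p, abundant in neutrophils and monocytes, ran from 247 CPM in CLP 5 over a median of 273 to 547 in CLP 1. CLP 1, 4 and 6 held 547, 503 and 447 CPM, and the other 6 libraries lay below 350. Its hairpin lies on the X chromosome (96242817 to 96242926, plus strand, mm10), in an exon of the noncoding gene F630028O10Rik. The other arm, miR-223-5p, ran from 66.3 CPM in CLP 5 over 115 to 238 in CLP 1, and was high in CLP 1, 4, 6 and 9. The arms had r = 0.89 (exact permutation p = 0.00155, adjusted p = 0.205; rho = 0.88, exact p = 0.00308), and 0.91 without the 2 libraries farthest from the median of miR-223-3p.

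Of the 9 myeloid miRNAs named 5 were tested, and their summed level ran from 11510 CPM in CLP 1 over 16948 to 31028 in CLP 8, most of it miR-146a-5p. miR-142a-5p, made in all blood lineages, ran from 1236 CPM in CLP 8 to 3025 in CLP 4, with r = 0.74 to miR-223-3p (exact permutation p = 0.0175, adjusted p = 0.376; rho = 0.65, exact p = 0.0666; 0.51 without the 2 farthest). miR-146a-5p, a feedback regulator of Toll-like receptor signalling, was lowest in CLP 1 at 8546 CPM and highest in CLP 8 at 29377, with r = -0.47 (exact permutation p = 0.198, adjusted p = 0.721; rho = -0.57, exact p = 0.121). miR-511-5p, encoded in the macrophage gene Mrc1, had r = -0.33 (exact permutation p = 0.409, adjusted p = 0.855; rho = -0.60, exact p = 0.0968). Over these 4 the median r was 0.21, beside 0.01 over all 238. The list thus held members that followed miR-223-3p and members that did not.

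miR-223-3p had the most partners before adjustment. Of 238 miRNAs 0 passed (0%), 58 had an unadjusted exact p under 0.05 (24.4%, 37 positive and 21 negative), and 67 by Spearman's rho, with a lowest adjusted p of 0.138. The highest r was that of miR-146b-5p (chromosome 19, 46342762 to 46342870, in an intron of Mfsd13a), which differs from miR-146a-5p by few bases. It ran from 6151 CPM in CLP 7 to 13545 in CLP 1, with r = 0.96 (exact permutation p = 0.000237, adjusted p = 0.138; rho = 0.90, exact p = 0.00203; 0.91 without the 2 farthest libraries). The epithelial miRNA miR-205-5p had the lowest, at -0.92 (exact permutation p = 0.000391, adjusted p = 0.138; rho = -0.80, exact p = 0.0138; -0.90 without the 2 farthest), and ran from 22.0 CPM in CLP 1 to 93.7 in CLP 2. Both were named after their values were seen. The r of miR-223-3p with the GC slope was -0.62, and with the GC trend of each library removed its r was 0.94 with miR-146b-5p, -0.91 with miR-205-5p, 0.85 with miR-223-5p, 0.49 with miR-142a-5p (0.74 before) and -0.37 with miR-146a-5p (-0.47 before).

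No pair of the 6 markers passed. Of their 15 pairs none had an unadjusted exact permutation p under 0.05, the lowest being 0.137 (adjusted p = 0.676) for miR-217-5p with miR-451a, at r = -0.54. The highest r was 0.44, for miR-1a-3p with miR-143-3p. In 8 of the 15 pairs the sign of r changed on leaving out some 1 library. For miR-122-5p with miR-217-5p r was -0.45 (exact permutation p = 0.222, adjusted p = 0.745; rho = -0.52, exact p = 0.162), and 0.10 without CLP 1 and CLP 5. With 9 libraries a p that misses the threshold does not show that a pair is unrelated.

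The 50 miRNAs with the largest SD (the 50th at 0.709, the 51st at 0.707) were grouped by their correlations, average linkage with a distance of 0.4, and 40 fell into 5 groups of at least 3. Since the groups were made from these values they are a description with no test. The first held 15 miRNAs: miR-196a-1-3p, miR-423-5p, miR-200b-5p, miR-615-3p, miR-184-3p, miR-214-3p, miR-187-5p, miR-375-3p, miR-320-3p, miR-125a-5p, miR-125b-5p, miR-191-5p, miR-330-3p, miR-574-5p and let-7e-5p. Their mean deviation in log2 CPM was lowest in CLP 1 (-1.72) and highest in CLP 5 (1.21), and the median r within the group was 0.77, or 0.66 without CLP 1 and CLP 5. In it, miR-196a-1-3p, encoded in a Hox cluster, ran from 1.21 CPM in CLP 1 over 14.5 to 86.8 in CLP 8, and miR-423-5p, from an intron of Nsrp1, from 106 in CLP 1 over 244 to 2025 in CLP 5. miR-423-5p and miR-320-3p had r = 0.95, and 0.97 without CLP 1 and CLP 5. miR-214-3p, with a mean of 13.1 CPM, reached the minimum of 10 CPM for testing only through CLP 5, where this group was highest.

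The second group, of 14, joined muscle miRNAs with miRNAs of the imprinted Dlk1-Dio3 region on chromosome 12. It held miR-133a-3p, miR-133b-3p, miR-206-3p and miR-208a-3p, then miR-381-3p, miR-665-3p, miR-434-3p, miR-382-5p, miR-127-3p, miR-411-5p, miR-379-5p, miR-136-3p and miR-409-5p, and miR-22-3p, which is made in many tissues and abundant in muscle. It was highest in CLP 2 (a mean deviation of 1.44), then in CLP 3 (0.90), and lowest in CLP 5 (-1.38), with a median r of 0.85, or 0.82 without CLP 1 and CLP 5. Its member miR-665-3p, with a mean of 10.8 CPM, reached the minimum of 10 CPM for testing only through CLP 2. miR-381-3p ran from 25.4 CPM in CLP 5 over 66.0 to 367 in CLP 2, and miR-127-3p from 455 in CLP 5 over 929 to 4022 in CLP 2. Of the 14 Dlk1-Dio3 miRNAs named 9 were tested, their summed level ran from 957 CPM in CLP 5 over 1722 to 6230 in CLP 2 (a 6.51-fold range, or 4.16-fold without CLP 5), and the median r among their 36 pairs was 0.83. The list leaves out other tested miRNAs of the region, so this median does not describe all of it. Of its neighbours outside the list, miR-127-3p had r = 0.95 with miR-136-3p, 0.93 with miR-665-3p and 0.46 with miR-434-5p. For miR-381-3p r was 0.54 with miR-666-5p, 0.52 with miR-134-5p and 0.39 with miR-485-5p. Across the 54 pairs of a tested muscle miRNA with a tested member of the Dlk1-Dio3 list the median r was 0.65 (0.54 without CLP 1 and CLP 5), beside -0.16 (-0.20) over the 36 pairs of muscle with liver miRNAs. The muscle marker miR-1a-3p fell in none of the groups. Its r with the 9 tested members of the Dlk1-Dio3 list ran from -0.05 (miR-409-3p) to 0.67 (miR-379-5p). Without CLP 1 and CLP 5 it ran from -0.36 to 0.26, with the same miRNAs at the ends. miR-133b-3p with miR-127-3p had r = 0.89, and 0.89 without CLP 1 and CLP 5. miR-409-3p, of the same region, was among the 5 steadiest miRNAs.

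The third group was the liver set of miR-122-5p, miR-802-5p, miR-192-5p and miR-194-5p with miR-101b-3p. It was highest in CLP 1 (2.17) and lowest in CLP 6 (-0.92), and its median r was 0.79, or 0.42 without CLP 1 and CLP 5. miR-802-5p with miR-194-5p had r = 0.91, and 0.72 without CLP 1 and CLP 5. The fourth group held miR-3535, miR-181a-1-3p and miR-20a-5p, and miR-3535 stood at 3041 CPM in CLP 1 and 2915 in CLP 2 against a median of 676. The fifth held miR-666-5p, miR-485-5p and miR-1943-5p, highest in CLP 3 (1.31) and lowest in CLP 9 (-1.13). Its median GC content of 64.5% covers miR-666-5p (68.2%) and miR-1943-5p (60.9%) only, as miR-485-5p had no sequence. The hairpins of miR-666-5p and miR-485-5p lie within 10 kb of the Dlk1-Dio3 miRNAs miR-300-3p and miR-382-5p, respectively. miR-485-5p, with a mean of 10.5 CPM, reached the minimum of 10 CPM for testing only with CLP 3 included.

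**Figure D4:**
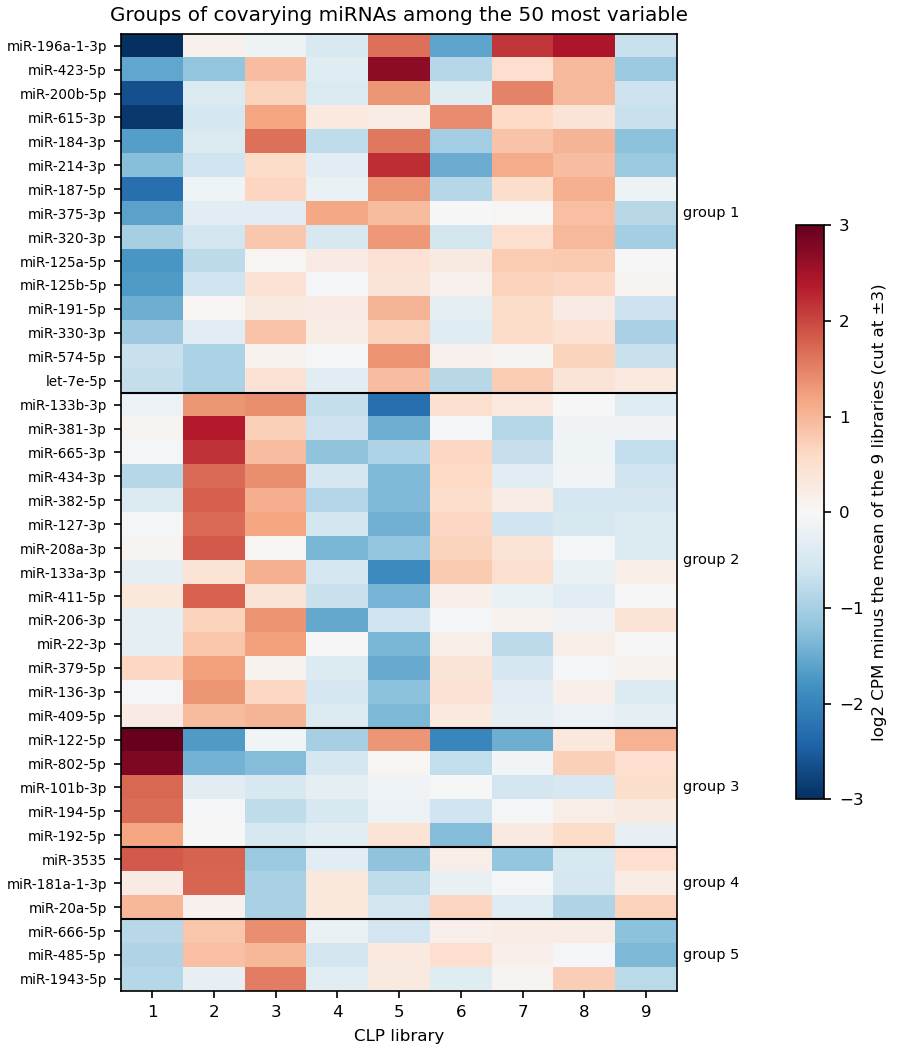
Deviation of log2 CPM from the mean of the 9 CLP libraries (colour, red above and blue below, cut at 3 either way) for the 40 miRNAs in 5 groups (rows, divided by lines) across the libraries (columns). Group 1 is low in CLP 1 and high in CLP 5, group 2 high in CLP 2 and CLP 3 and low in CLP 5, and group 3 high in CLP 1.

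The first principal component of log2 CPM held 37.5% of the variance and set CLP 1 (a score of -9.96) against CLP 5 (10.27). The second held 26.3%, with CLP 2 at 7.03 and CLP 1 at -6.95 as its ends. Over 16 relations of these components with the markers and library measures none passed after adjustment. The lowest exact permutation p was 0.00943 (adjusted p = 0.139), for the second component with miR-122-5p at r = -0.80 (rho = -0.83, exact p = 0.00827; -0.73 without the 2 farthest libraries). The first component had r = -0.76 with miR-1a-3p (exact permutation p = 0.0174, adjusted p = 0.139; rho = -0.68, exact p = 0.0503; -0.56 without the 2 farthest). Every marker, miR-122-5p and miR-1a-3p among them, is among the miRNAs from which the components were made. A correlation of a component with a marker is therefore partly built in.

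Base composition differed between the libraries. The GC slope, the change in log2 deviation per 10 percentage points of GC in the mature sequence, was -0.33 in CLP 1, -0.21 in CLP 9 and 0.24 in CLP 3, and lay between 0.02 and 0.09 in the other 6. The slope was made from the same miRNAs, so a correlation with it is partly built in. By the same exact permutation test, adjusted over 478 pairs, 17 of 239 miRNAs (7.11%) passed, 11 with a positive and 6 with a negative r, 86 had an unadjusted exact p under 0.05, and 16 passed by Spearman's rho. Among them r was 0.94 for miR-501-3p, 0.93 for miR-351-5p, 0.93 for miR-298-5p, -0.91 for miR-101b-3p, -0.88 for miR-148a-5p and -0.87 for let-7g-5p, with adjusted p from 0.0132 to 0.0498 in the exact permutation test. The count was 0 without CLP 1 and CLP 9, the 2 libraries farthest from the median slope, where 7 libraries leave the adjusted test little room; there all 17 kept the sign of r, with sizes from 0.47 to 0.88. On leaving out 1 library it was 2 without CLP 1, 5 without CLP 9, 6 without CLP 8, 8 without CLP 5, 8 without CLP 7 and 11 without CLP 4. None of the 6 markers was among the 17. The first component had r = 0.72 with the slope (exact permutation p = 0.0277, adjusted p = 0.148; rho = 0.82, exact p = 0.0108) and 0.34 without the 2 farthest libraries. Whether base composition has a part in the groups above was not tested. Of 239 miRNAs 0 passed with the log2 total count (0%), 26 had an unadjusted exact p under 0.05, and 22 by Spearman's rho.

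**Figure D5:**
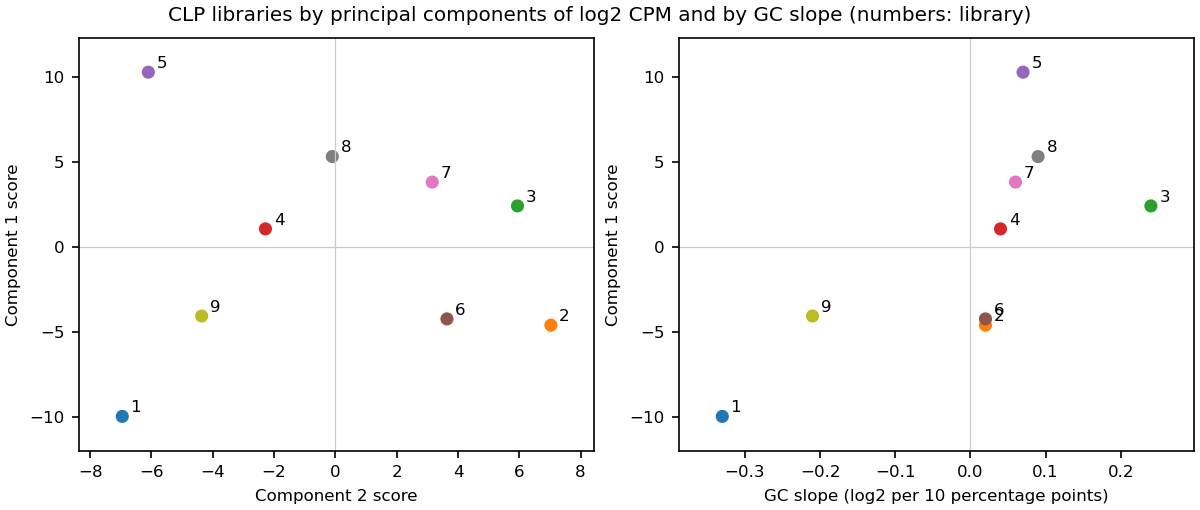
Scores of the 9 CLP libraries on the first component of log2 CPM (y axis) against the second component (left) and against the GC slope in log2 per 10 percentage points (right), with the library number beside each point. CLP 1 (-9.96) and CLP 5 (10.27) lie at the ends of the first component, and CLP 1 and CLP 9 have the lowest GC slopes.

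Pairs of miRNAs from 1 hairpin, from neighbouring hairpins or with the same seed were more often high and low together than pairs at large. This is given as a description. Over all 28441 tested pairs the median r was -0.01. It was 0.58 over 47 pairs of arms of 1 hairpin, 0.48 over 146 pairs from hairpins within 10 kb on 1 strand, and 0.41 over 91 pairs with the same seed. These classes overlap, and counts of pairs with similar sequences may share reads. Removing the GC trend left the median at 0.61 for the 39 pairs of arms with a sequence. The arms of miR-22 (r = 0.94), miR-215 (0.92), the endothelial miR-126a (0.91) and miR-148a (0.90) were close, as were the neighbours miR-20a-5p and miR-19b-3p (0.98) and miR-200b-3p and miR-429-3p (0.97). Other hairpins had arms apart, such as miR-221 (-0.54), miR-222 (-0.52) and miR-144 (0.32). Of the neighbour pairs 76.0% had a positive r, and some ran opposite, such as miR-351-5p with miR-542-3p (-0.86) and miR-30d-5p with miR-30b-5p (-0.78).

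The first and the third largest SD belonged to 2 neighbouring miRNAs of the X chromosome. miR-741-3p (hairpin at 66796805 to 66796875, minus strand, mm10) was read 1 time in CLP 2 and reached 63.0 CPM in CLP 5, over a median of 4.16. It held 30.9 CPM in CLP 8, 17.6 in CLP 9 and 15.7 in CLP 4, and under 1 CPM in CLP 2, 3, 6 and 7. Its mean of 14.8 CPM reached the minimum of 10 CPM for testing only through CLP 5. miR-871-3p (66810428 to 66810504, minus strand) ran from 1.13 CPM in CLP 7 over 9.88 to 66.1 in CLP 5, and its r with miR-741-3p was 0.95 (rho = 0.82; 0.94 without CLP 1 and CLP 5). These hairpins belong to a cluster known for expression in testis. Within 100 kb of Mir741 15 other entries were found, of which 5 had a mean of at least 1 CPM: miR-871-3p, miR-881-3p, miR-470-5p, miR-465b-5p and miR-465c-5p. Their r with miR-741-3p lay between 0.93 and 0.97, and 4 of the 5 were highest in CLP 5. This cluster was looked up after its values were seen and has no test.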

How the data were processed

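The 9 libraries labelled CLP were analysed alone. RNA was extracted from platelet-free plasma with Trizol LS and made into libraries by adapter ligation with a Norgen Biotek kit, per the labels' protocols; ligation favours some end sequences, so counts are relative. The authors deposited 1 table of expected counts per mature miRNA, not scaled for depth, with mm10 as build per the submitters' processing notes. The table's name gives the exceRpt pipeline. For the aligner, trimming and miRNA annotation the entry is: not given in the sources used here. Of the entries in the 9 libraries, 4.70% were not whole, as arises when shared reads are divided, and 8 tested entries name more than 1 miRNA.

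Expected counts were rounded and scaled by TMM in edgeR 4.0.16 (R 4.3.3), with factors from 0.892 to 1.17, and converted to log2 CPM with a prior count of 2. Pearson's r of each marker with each tested miRNA was tested by enumerating all 362880 permutations, two-sided, in Python 3.11.15 with numpy 2.4.6, with Benjamini-Hochberg adjustment at 0.05. In simulated data 19 of 20 miRNAs made to follow miR-122-5p were called, with 0 of 194 unrelated ones, and 3 of 965 unrelated pairs with the other 5 markers. The followers, and 20 miRNAs made to run opposite, had the full spread of miR-122-5p with small noise beside it. These shares therefore do not show how often weaker relations, or partners of markers with a smaller spread, would be called. Counting intervals cover counting error only. Between 2 libraries chi-square was at least 762 per degree of freedom, so none was a copy of another.

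Sequences came from RefSeq (GRCm38.p6), matched by name for 208 tested miRNAs (87.0%), and hairpin positions from GENCODE M21. The members, lists and tests were chosen with earlier results of these data known. Named were the markers, tested list members, the 15 largest and 5 smallest SDs, the 5 most abundant and members of the groups; since no partner passed, the partners of highest and lowest r were named after their values were seen. Alternatives were Spearman's rho, library size and relative log expression scaling, prior counts of 0.5 and 5, filters of 1 and 100 CPM, leaving out the red cell list, removing the GC trend, and leaving out each library or the 2 farthest; leaving out CLP 1 and CLP 5 together was added after seeing the data.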

Additional observations from a re-analysis of the deposited data

Results flagged for a closer look

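In 5 of 50 sets of values tested over the 9 libraries, the lowest or highest library lay farther from its nearest neighbour than Dixon's 95% criterion allows. Chance flags about 1 in 20 sets that are not chosen by their values, or 2.50 of 50. The sets here include miRNAs named for their large SD and miRNAs that covary, so the 2 counts cannot be compared directly. CLP 1 accounted for 3 of them: miR-802-5p at 56.1 CPM, miR-194-5p at 371 CPM, both high, and miR-615-3p at 3.81 CPM, low. CLP 7 stood apart for miR-143-3p at 74402 CPM. CLP 5 stood apart for miR-145a-5p at 1320 CPM, the lowest level of that miRNA.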

How the results depend on the processing

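No paired analysis was possible because only the CLP group was analysed, so that no 2 groups share a replicate number. The count of 0 partners held for each marker under the alternatives run for it (the GC trend was removed only for miR-217-5p, miR-451a and miR-223-3p, and the red cell list was left out for the markers other than miR-451a), except that 1 miRNA passed for miR-223-3p without CLP 5 (range 0 to 1 on leaving out 1 library). The 17 miRNAs that passed with the GC slope became 6 with library size scaling, 0 at a minimum of 1 CPM, 6 at 100 CPM, 8 without the red cell list, 0 without the 2 farthest libraries, 0 without CLP 1 and CLP 5, and between 2 and 20 on leaving out 1 library. The 19 miRNAs with an SD of at least 1 became 66 at a minimum of 1 CPM, 7 at 100 CPM and 10 without CLP 1 and CLP 5. The cause of these shifts was not tested beyond the number of miRNAs tested, 436 at 1 CPM and 121 at 100 CPM.

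Of 54 correlations of a marker with a list member, a partner of high or low r, or another marker named beside it (all marker pairs are counted above), 42 kept their sign under the alternatives and 12 did not. The largest size of r with a change of sign was 0.7, so these changes were not limited to weak relations. Without CLP 1 and CLP 5, r was 0.10 for miR-122-5p with miR-217-5p, 0.08 with miR-215-5p, and for miR-451a 0.20 with miR-129-5p, -0.15 with miR-144-5p and -0.17 with miR-92a-3p; for miR-223-3p with miR-511-5p it was 0.23. Without the 2 farthest libraries r was -0.24 for miR-451a with miR-92a-3p, 0.37 with miR-24-3p, -0.12 for miR-143-3p with miR-143-5p, -0.78 with miR-145a-3p, -0.07 with miR-199a-5p, and 0.00 for miR-223-3p with miR-511-5p. With all 9 libraries r was 0.64 for miR-143-3p with miR-199a-5p. Spearman's rho was 0.10 for miR-122-5p with miR-215-5p, and removal of the GC trend gave -0.01 for miR-451a with miR-144-5p. On leaving out 1 library, r ran from -0.51 to 0.25 for miR-122-5p with miR-215-5p, from -0.02 to 0.71 for miR-1a-3p with miR-133b-3p and for miR-143-3p with miR-143-5p, from -0.09 to 0.49 for miR-217-5p with miR-375-3p, from -0.14 to 0.27 for miR-451a with miR-144-5p, from -0.40 to 0.43 for miR-451a with miR-92a-3p, from -0.45 to 0.76 for miR-143-3p with miR-145a-3p and from -0.63 to 0.12 for miR-223-3p with miR-511-5p. Depth limits the scarce miRNAs: miR-741-3p was at 1 count in CLP 2.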

Other observations

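Lists of other cell types that plasma could hold had narrower summed ranges, from 1.50-fold (lymphocyte) to 2.80-fold (endothelium) between the lowest and highest library, than the liver, muscle and pancreas lists (7.49-fold to 8.47-fold). The latter rest in part on 1 library each, and were 3.36-fold (liver, without CLP 1), 4.80-fold (muscle, without CLP 5) and 3.13-fold (pancreas, without CLP 1). The remaining marker lists ran over 4.72-fold (red cell, 2.96-fold without CLP 5), 2.70-fold (myeloid) and 2.43-fold (smooth muscle). The myeloid and smooth muscle lists were thus no wider than the endothelium list. Most of the pancreas sum was the islet and enteroendocrine miRNA miR-375-3p. The endothelial list, the arms of miR-126a, ran from 1615 CPM in CLP 2 over 2470 to 4515 in CLP 9, and the arms had r = 0.91. The 7 epithelial miRNAs, all tested, summed to between 1375 CPM in CLP 3 and 3434 in CLP 8, with a median r of 0.62 among their 21 pairs, led by miR-200a-3p (938 CPM in CLP 3 to 2624 in CLP 8). The 5 lymphocyte miRNAs summed to between 1762 CPM in CLP 5 and 2645 in CLP 2, with a median r of 0.22, and within them miR-150-5p, abundant in mature lymphocytes, ran from 85.2 CPM in CLP 8 over 207 to 567 in CLP 4. The 9 let-7 family members, all tested, had a median r of 0.20 among 36 pairs. let-7b-5p and let-7c-5p were highest in CLP 5, at 5128 and 5251 CPM, whereas let-7g-5p and let-7i-5p were highest in CLP 1, at 2871 and 4095 CPM. Of the 5 neural miRNAs 2 were tested, with miR-128-3p from 176 CPM in CLP 1 to 480 in CLP 2, and miR-9-5p stayed between 0.248 and 1.40 CPM.

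Among scarce myeloid miRNAs, miR-155-5p, induced in activated leukocytes, ran from 3.88 CPM in CLP 3 to 13.6 in CLP 6 and had r = 0.62 with miR-223-3p. miR-147-3p ran from 2.71 to 9.00 CPM, with r = 0.28. The muscle miRNA miR-208b-3p was read between 6 times in CLP 5 and 100 times in CLP 3, and its r with miR-1a-3p was 0.46, between 0.06 and 0.61 on leaving out 1 library.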
